A study of Mus musculus with 24 samples.

Results

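Docetaxel was added to the IRE1 inhibitor ORIN1001 in mice carrying a mammary tumour, and the RNA of those tumours was compared with the RNA of tumours given ORIN1001 without docetaxel. Members are the 3 input libraries of the combination group and the 3 input libraries of the ORIN1001 group, 6 of the 24 libraries of the series, chosen by their labels alone. Input means total RNA of the bulk tumour before any pull-down with an antibody; the 12 libraries made with the J2 antibody, which binds double-stranded RNA, were not used here. Each library was described by reads counted per gene and reads counted per name of transposable element (TE), the repeat sequences left by mobile DNA. Both groups carried the tumour line 2153L, a transplantable triple-negative mammary tumour without p53, placed in cleared mammary fat pads of female BALB/c mice aged 6 to 8 weeks, which have an intact immune system. Dosing began when tumours had reached about 100 mm3. The ORIN1001 group received ORIN1001 at 150 mg/kg by mouth each day plus the vehicle of docetaxel. The combination group received the same ORIN1001 dose plus docetaxel at 10 mg/kg, injected into the peritoneum once a week. Every mouse of the comparison had ORIN1001, so the groups differ by label in docetaxel and the comparison carries no information on ORIN1001 itself. All tumours come from 1 transplant line, and bulk tissue holds host cells beside tumour cells. The labels call the 3 libraries of a group biological replicates but do not tie them to named animals. The p-values set the difference between the groups against the spread between these libraries.

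IRE1, encoded by Ern1, is a kinase and ribonuclease in the membrane of the endoplasmic reticulum. When misfolded proteins build up it removes an intron from Xbp1 mRNA, which then encodes a transcription factor for chaperones, the secretory machinery and protein degradation. The same ribonuclease cuts other RNAs, a process called regulated IRE1-dependent decay (RIDD), and ORIN1001 blocks this ribonuclease. Docetaxel binds beta-tubulin, stabilises microtubules and stops dividing cells in mitosis. In immune-competent tumours, taxanes are also known to alter which immune and stromal cells are present. In bulk RNA, fewer cells of a type and less RNA per cell cannot be told apart, and this holds for every cell type named in the text.

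Library depth and composition moved with the groups. Gene counts (in M, mega) totalled 45.0, 25.4 and 34.4 M in ORIN1001 libraries 1 to 3 and 14.1, 11.8 and 15.7 M in combination libraries 1 to 3. TE names took 15.3, 12.3 and 11.8% of gene plus TE counts in the ORIN1001 libraries against 19.6, 29.5 and 21.4% in the combination libraries. Loci of ribosomal RNA took 0.758, 0.673 and 0.890% against 1.76, 3.56 and 1.36% of gene counts. Combination 2 stood apart from its group with the highest TE and ribosomal RNA shares and the lowest share of ribosomal protein mRNA, 1.44%. None of these composition measures overlapped between the groups, so depth, composition and treatment cannot be told apart in these 6 libraries. The first principal component of log2 CPM held 72.5% of the variance and separated the groups. Markers of the labelled tumour were present in every library: the keratin Krt18 stood at 403, 272 and 287 CPM (counts relative to the library total, scaled with edgeR's TMM factors) with ORIN1001 and 439, 411 and 419.5 with the combination, and the basal keratin Krt14 at 166, 166 and 81.4 and 187, 168 and 139.

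**Figure D1:**
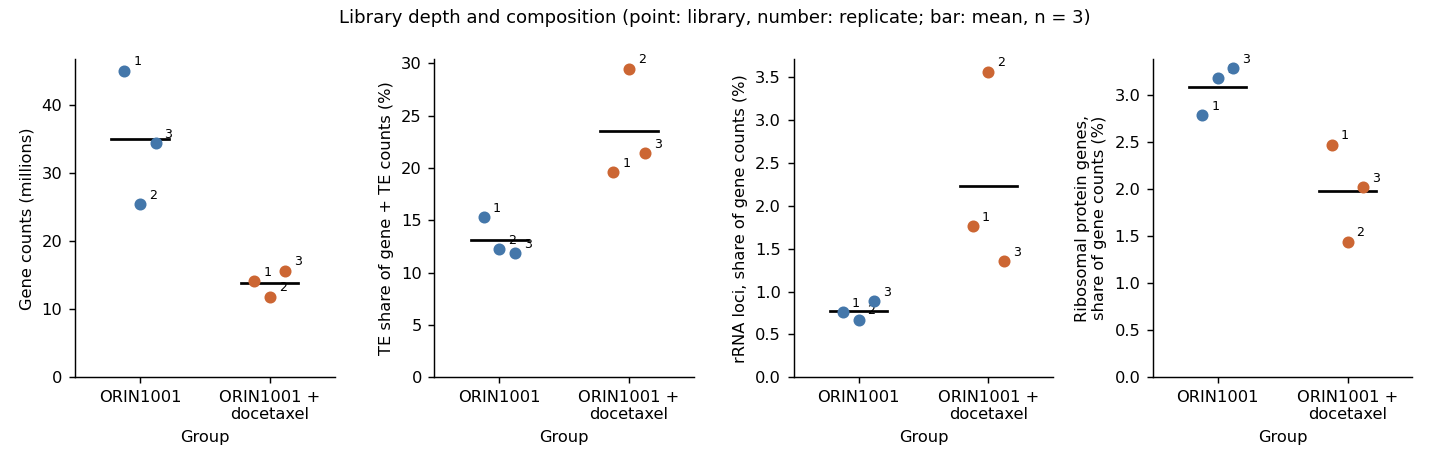
Composition of the 6 libraries; each point is 1 library (x axis, group), the bar is the group mean, and the y axes give gene counts in M, the TE share of gene plus TE counts, and the shares of ribosomal RNA loci and of ribosomal protein genes in gene counts, in percent. In each panel the 3 combination points lie on one side of the 3 ORIN1001 points.

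RNA of the combination tumours differed widely from that of the ORIN1001 tumours. Of 16586 genes tested, 5489 (33.1%) passed an adjusted p of 0.05 in edgeR's quasi-likelihood test: 2862 (17.3%) were higher and 2627 (15.8%) lower with the combination. More than 2-fold changes made up 1869 of the rises and 969 of the falls. The median log2 fold change of all genes was -0.01, so values below are read against a centre near 0. Under upper quartile scaling 3502 genes were higher and 1998 lower, which shifts the higher share of calls from 52.1% to 63.7%. Because 1 gene in 3 passed, a group of genes is set below against the 17.3% and 15.8% that pass in each direction anyway. The CPM values of the groups did not overlap in 54.5% of all genes, with the combination above in 26.9% and below in 27.7%. Most genes named below were picked for small p or large fold change. Their lack of overlap follows largely from that choice and is no separate support. Leaving out Combination 3, ORIN1001 2 or ORIN1001 3 reduced the calls to 1746, 1596 and 1620. Without Combination 2 there were 3917 calls, of which 3658 were also called with all 6 libraries in the same direction. Counts over gene lists moved with these totals, so most lists are given with each library left out in turn, and a library is named where it moved a list's count by more than 1.5 times.

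**Figure D2:**
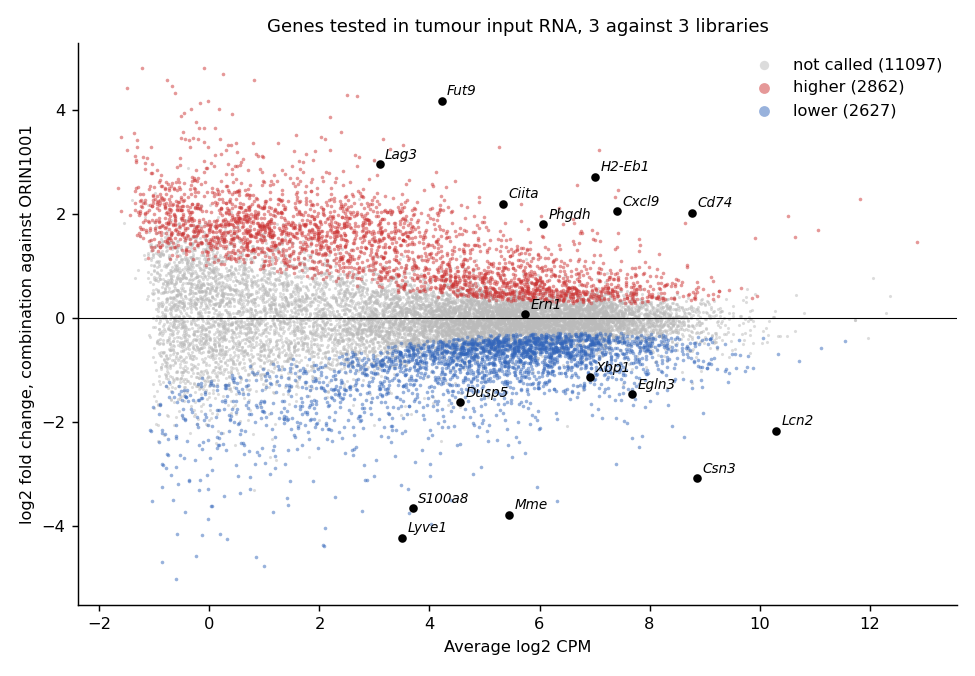
Every tested gene by its average log2 CPM (x axis) and its log2 fold change, combination against ORIN1001 (y axis); red points are genes higher with the combination at an adjusted p of 0.05, blue points lower, grey points not called. The named points show that genes of antigen presentation and T-cell attraction sit among the rises, and Csn3, Lcn2, S100a8 and Mme among the falls.

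The transcript that IRE1 splices was lower in the combination tumours, while IRE1's own transcript was not called. Xbp1 (chromosome 11, 5520641 to 5525993, GRCm38) had 147, 186 and 166 CPM in the ORIN1001 tumours and 79.5, 59.4 and 88.0 CPM in the combination tumours. The groups did not overlap, and Xbp1 fell by 1.14 ± 0.16 (SE) on the log2 scale (edgeR adjusted p = 0.00818). The fall was 0.98 without Combination 2. These are counts over the whole gene and do not separate the spliced from the unspliced form. Ern1 (chromosome 11, 106397620 to 106487796) had 50.8, 50.2 and 55.3 CPM with ORIN1001 and 49.3, 62.2 and 52.8 CPM with the combination, overlapping ranges with a log2 fold change of 0.07 ± 0.12. Of the 10 tested sensors and partners of the unfolded protein response, Xbp1 was the 1 that fell and none rose. The chaperone Hspa5 had 487, 686 and 851 CPM and 614, 346 and 489 CPM in the same order of groups (log2 fold change -0.48 ± 0.26, not called). Combination 2 held the lowest Hspa5 value of the 6.

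Among 43 tested genes known as XBP1 targets, 1 rose, 5 fell and 37 did not pass, with a median log2 fold change of -0.19. The lower members were parts of the secretory pathway. Ssr4, a subunit of the translocon-associated complex, had 71.4, 86.4 and 83.5 CPM with ORIN1001 and 41.9, 15.4 and 30.0 CPM with the combination (log2 fold change -1.46 ± 0.31, edgeR adjusted p = 0.0168). Derl3, which takes part in the removal of misfolded proteins, fell by 1.66 ± 0.41 and Srpr, a receptor for the signal recognition particle, by 0.56 ± 0.12 on the log2 scale. Ssr1, another subunit of the complex that holds Ssr4, was the member that rose, from 203, 216 and 251 CPM to 293, 343 and 287 CPM (log2 fold change 0.46 ± 0.13). The share of called members, 13.95%, was below the 33.1% of all genes. With single libraries left out, 0 to 1 rose (0 without Combination 2, Combination 3, ORIN1001 1, ORIN1001 2 or ORIN1001 3) and 0 to 7 fell (0 without Combination 3, ORIN1001 2 or ORIN1001 3), with medians from -0.35 to -0.05.

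Of 13 tested genes listed as substrates of IRE1's decay activity, 1 rose and 5 fell, with a median log2 fold change of -0.53. Pdk2, a kinase that restrains pyruvate dehydrogenase, had 42.0, 44.0 and 32.1 CPM with ORIN1001 and 19.5, 17.1 and 20.04 CPM with the combination (log2 fold change -1.06 ± 0.16, edgeR adjusted p = 0.00832). The collagen gene Col6a1 had 23.3, 31.1 and 49.7 CPM and 12.7, 9.64 and 11.2 CPM (log2 fold change -1.63 ± 0.28, edgeR adjusted p = 0.0114). The receptor Pdgfrb fell by 1.04 ± 0.28 on the log2 scale. Both Col6a1 and Pdgfrb are genes of stromal cells, whose markers were lower as well (values under stroma). The peptidase Blmh rose, from 47.5, 42.5 and 45.0 CPM to 68.9, 62.9 and 61.2 CPM (log2 fold change 0.51 ± 0.10). With each library left out in turn, 0 to 2 rose (0 without ORIN1001 2 or ORIN1001 3 and 2 without Combination 2) and 2 to 6 fell (2 without Combination 3, ORIN1001 2 or ORIN1001 3), with medians from -0.62 to -0.38.

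Of 23 tested genes of the ATF4 and CHOP branch of the stress response, 4 rose (17.4%) and 3 fell (13.0%), with a median of 0.01. These shares were near the 17.3% and 15.8% of all genes. Phgdh, the first enzyme of serine synthesis, had 34.2, 21.7 and 33.3 CPM with ORIN1001 and 98.0, 107 and 107 CPM with the combination, 3.50-fold higher (log2 fold change 1.81 ± 0.18, edgeR adjusted p = 0.00447). Gdf15, a secreted stress cytokine present at low level, had 0.755, 0.888 and 1.01 CPM and 2.56, 2.94 and 1.78 CPM (log2 fold change 1.45 ± 0.32). In the other direction, the transcription factor Cebpb had 883, 919 and 983 CPM and 550.2, 581 and 603 CPM (log2 fold change -0.68 ± 0.11, edgeR adjusted p = 0.00938), with narrow ranges that did not overlap. The lipoprotein receptor Vldlr fell by 0.99 ± 0.22 and Ddit3, which encodes CHOP, by 0.83 ± 0.21 on the log2 scale. Across the 6 fits without 1 library, 1 to 4 rose (1 without ORIN1001 2 or ORIN1001 3) and 1 to 4 fell (1 without Combination 3 or ORIN1001 2), with medians from -0.05 to 0.09. Of 14 heat shock genes, Bag3 (-0.67 ± 0.14) and Cryab (-0.97 ± 0.22) fell and none rose.

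Genes of the drug's target, the tubulins, were called in both directions. Of 13 tested tubulin genes, 3 rose (23.1%) and 2 fell (15.4%), with a median log2 fold change of -0.26. Of all genes, 17.3% rose and 15.8% fell. Tubb2b, a beta-tubulin, had 29.7, 33.5 and 28.0 CPM with ORIN1001 and 97.8, 65.3 and 88.4 CPM with the combination (log2 fold change 1.46 ± 0.16, edgeR adjusted p = 0.00539). Tuba1a, an alpha-tubulin, had 63.0, 80.3 and 90.8 CPM and 141, 117 and 194 CPM (log2 fold change 0.95 ± 0.21, edgeR adjusted p = 0.0183). The gamma-tubulins, which nucleate microtubules, were lower: Tubg1 fell by 1.17 ± 0.33 and Tubg2 by 1.81 ± 0.36 on the log2 scale, and Combination 2 held the lowest value of both. Tubb5, the main beta-tubulin of many cells, had 935, 967 and 974 CPM and 1049, 670.1 and 1040.0 CPM and was not called. When 1 library was left out, 1 to 2 rose (1 without Combination 3 or ORIN1001 2) and 0 to 3 fell (0 without Combination 3 and 1 without ORIN1001 1, ORIN1001 2 or ORIN1001 3), with medians from -0.36 to -0.05.

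Among 24 microtubule-binding and motor genes, 2 rose (8.33%) and 6 fell (25.0%), beside 17.3% and 15.8% of all genes. Clasp2, which stabilises the growing ends of microtubules, rose by 0.59 ± 0.13 on the log2 scale. The neuronal-type proteins Map1b and Map2 and the plus-end binder Mapre3 fell by 1.62 ± 0.40, 0.76 ± 0.17 and 0.73 ± 0.16. In fits on 5 libraries, 0 to 2 rose (0 without Combination 3, ORIN1001 2 or ORIN1001 3 and 1 without Combination 2) and 0 to 6 fell (0 without Combination 3 and 2 without ORIN1001 2 or ORIN1001 3), with medians from -0.19 to -0.09. Of 7 tested genes of drug efflux and metabolism, 2 rose (28.6%) and 1 fell (14.3%). Abcb1b, 1 of the mouse genes for the multidrug pump P-glycoprotein, which exports taxanes, had 2.17, 4.32 and 2.89 CPM with ORIN1001 and 8.04, 8.17 and 8.09 CPM with the combination (log2 fold change 1.38 ± 0.29, edgeR adjusted p = 0.0163). The 3 combination values were nearly equal to each other and above each ORIN1001 value. Abcc3, a related export pump, rose by 0.91 ± 0.18, and the oxidising enzyme Cyp1b1 fell by 2.04 ± 0.45 on the log2 scale. Of the efflux and metabolism genes, 1 to 2 rose (1 without Combination 3, ORIN1001 2 or ORIN1001 3) and 0 to 1 fell (0 without Combination 3) when 1 library was left out.

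Few mitotic genes were called. Of 35 tested genes of mitosis and the spindle, 0 rose and 1 fell (median log2 fold change -0.11), against 33.1% of all genes that passed in either direction. The 1 that fell was the cyclin Ccnb2, with 91.8, 109 and 111 CPM and 65.8, 55.7 and 65.5 CPM (log2 fold change -0.74 ± 0.12, edgeR adjusted p = 0.0105). The proliferation marker Mki67 had 455, 504 and 427 CPM with ORIN1001 and 466, 411 and 361 CPM with the combination, and its ranges overlapped. Replication genes gave 7 rises (23.3%) and 2 falls (6.67%) of 30, beside 17.3% and 15.8% of all genes. The licensing factor Cdt1 and the helicase subunit Mcm3 rose by 0.49 ± 0.11 and 0.60 ± 0.15. Thymidine kinase Tk1 fell from 133, 133 and 138 CPM to 87.8, 53.3 and 72.4 CPM (log2 fold change -0.92 ± 0.17). On any 5 of the 6 libraries, 0 to 6 rose (0 without ORIN1001 2 or ORIN1001 3, 1 without Combination 3 and 3 without Combination 1 or ORIN1001 1) and 1 to 3 fell (1 without Combination 3, ORIN1001 1, ORIN1001 2 or ORIN1001 3), with medians from -0.04 to 0.09. Of the mitotic genes, 0 rose and 1 to 5 fell (2 without ORIN1001 1 and 5 without Combination 1) when 1 library was left out.

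Genes of DNA repair were higher where they were called. Of 20 tested, 8 rose and 0 fell, with a median log2 fold change of 0.28. Fancd2, which acts at crosslinked DNA, had 41.8, 38.5 and 38.7 CPM with ORIN1001 and 56.5, 61.9 and 61.0 CPM with the combination (log2 fold change 0.59 ± 0.10, edgeR adjusted p = 0.0110). Brca2 and the checkpoint kinase Chek2 rose by 0.67 ± 0.14 and 0.48 ± 0.10 on the log2 scale. All of these rises were below 2-fold, and the groups did not overlap for any of the 3. With single libraries left out, 2 to 7 rose (2 without ORIN1001 2 or ORIN1001 3 and 4 without Combination 3) and 0 fell, with medians from 0.23 to 0.33.

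The tumour line lacks p53, and reads at Trp53 were 49.0, 47.0 and 55.8 CPM with ORIN1001 and 46.2, 27.1 and 35.1 CPM with the combination. The combination values lay below the others, but the difference was not called (log2 fold change -0.48 ± 0.19, edgeR adjusted p = 0.0830). Host cells carry an intact Trp53, and the counts do not say which part of the gene the reads cover, so they check no label. Genes known as p53 targets were called in both directions, 3 higher (14.3%) and 2 lower (9.52%) of 21, beside 17.3% and 15.8% of all genes. Phlda3, a brake on AKT signalling, had 74.5, 51.1 and 51.7 CPM and 106, 113 and 93.2 CPM (log2 fold change 0.82 ± 0.17, edgeR adjusted p = 0.0161). The kinase gene Plk2 fell by 0.77 ± 0.17 on the log2 scale, and the cell cycle inhibitor Cdkn1a had overlapping values of 58.4, 35.7 and 60.2 CPM and 57.8, 88.3 and 43.8 CPM. With each library left out in turn, 0 to 3 rose (0 without ORIN1001 2 and 1 without Combination 3 or ORIN1001 3) and 0 to 3 fell (0 without Combination 3, ORIN1001 2 or ORIN1001 3 and 1 without Combination 2), with medians from -0.13 to 0.03.

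Of 24 genes of the BCL2 family and the caspases, 3 rose (12.5%) and 4 fell (16.7%), beside 17.3% and 15.8% of all genes. Pmaip1, the death-promoting NOXA, had 3.22, 4.32 and 4.73 CPM with ORIN1001 and 7.69, 11.3 and 8.21 CPM with the combination (log2 fold change 1.15 ± 0.25, edgeR adjusted p = 0.0185). The survival gene Bcl2 rose by 0.75 ± 0.22 on the log2 scale. Death-promoting Bad and Bax fell by 1.30 ± 0.24 and 0.59 ± 0.18. Death-promoting genes thus stood on both sides of 0. Across the 6 fits without 1 library, 0 to 4 rose (0 without Combination 3 or ORIN1001 2 and 1 without ORIN1001 3) and 2 to 6 fell (2 without Combination 3, ORIN1001 2 or ORIN1001 3), with medians from -0.08 to -0.02.

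Genes of antigen presentation were higher in the combination tumours. Every tested class II gene had a positive fold change and 9 of 10 passed the test, with a median log2 fold change of 2.11; 17.3% of all genes passed as higher. Class II molecules show peptides to CD4 T cells and are made mainly by dendritic cells, macrophages and B cells, and by other cells under interferon-gamma. H2-Eb1, a class II beta chain on chromosome 17, 34305867 to 34316674, had 22.2, 60.5 and 20.5 CPM with ORIN1001 and 194, 211 and 269 CPM with the combination, 6.56-fold higher (log2 fold change 2.71 ± 0.42, edgeR adjusted p = 0.00918). Cd74, the invariant chain that guides class II molecules, had 119, 286 and 111 CPM and 679.8, 597 and 824 CPM (log2 fold change 2.03 ± 0.36, edgeR adjusted p = 0.0123). Ciita, the regulator that switches class II genes on, had 11.4, 23.6 and 8.72 CPM and 50.3, 77.3 and 71.0 CPM (log2 fold change 2.19 ± 0.36, edgeR adjusted p = 0.0105). In all 3 genes ORIN1001 2 was the highest of its group and still lay below each combination library. When 1 library was left out, 5 to 10 rose (5 without Combination 3 or ORIN1001 3) and 0 fell, with medians from 1.85 to 2.68.

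Class I genes, which show peptides to CD8 T cells, gave 11 rises and 0 falls of 19 (median log2 fold change 0.70). Nlrc5, the class I regulator, had 55.1, 87.3 and 50.5 CPM with ORIN1001 and 171, 238 and 191 CPM with the combination (log2 fold change 1.64 ± 0.23, edgeR adjusted p = 0.00745). The peptide transporter Tap1 had 103, 177 and 96.9 CPM and 299, 328 and 361 CPM (log2 fold change 1.39 ± 0.23, edgeR adjusted p = 0.0105). Tapbp, which loads peptides, and the transporter Tap2 rose by 1.03 ± 0.14 and 0.94 ± 0.15. The light chain B2m was an exception, with overlapping values of 667, 1222 and 823 CPM and 743, 283 and 758 CPM and a negative fold change that did not pass (log2 fold change -0.60 ± 0.38). B2m was chosen after its value was seen, and Combination 2 held the lowest value. Class I genes are near-identical copies of each other, so reads may have been divided among them. In fits on 5 libraries, 4 to 11 rose (4 without Combination 3 or ORIN1001 3 and 7 without Combination 1 or ORIN1001 1) and 0 fell, with medians from 0.57 to 0.88. With the other treatment groups in the fit, 6 rose on 11 inputs (without Docetaxel 3) and 2 rose on all 12 inputs.

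Guanylate-binding proteins and immunity-related GTPases, interferon-gamma-induced genes that attack pathogen compartments, rose in 13 of 20 tested members with no fall (median log2 fold change 1.15). Gbp9 had 20.6, 25.0 and 16.2 CPM with ORIN1001 and 63.4, 55.4 and 55.5 CPM with the combination (log2 fold change 1.497 ± 0.17, edgeR adjusted p = 0.00546). Gbp10 had 1.97, 2.87 and 1.79 CPM and 9.68, 8.49 and 10.5 CPM (log2 fold change 2.12 ± 0.26, edgeR adjusted p = 0.00604). Neighbouring copies of these genes also resemble each other in sequence. On any 5 of the 6 libraries, 8 to 15 rose (8 without Combination 3) and 0 fell, with medians from 0.92 to 1.30. With 11 inputs in the fit 5 rose, and with all 12 inputs 2 rose.

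The broader list of interferon-stimulated genes moved less: 11 of 46 rose and 3 fell, with a median log2 fold change of 0.27, a higher share of 23.9% beside the background of 17.3%. Oas2, which senses double-stranded RNA and activates RNase L, had 20.9, 33.5 and 28.3 CPM with ORIN1001 and 52.0, 59.2 and 79.3 CPM with the combination (log2 fold change 1.21 ± 0.22, edgeR adjusted p = 0.0122). Ifitm1, a membrane protein that blocks virus entry, fell from 6.402, 8.72 and 4.44 CPM to 1.92, 1.39 and 1.47 CPM (log2 fold change -2.02 ± 0.33). The interferon-induced Ifit1 had overlapping values of 58.1, 48.3 and 35.0 CPM and 40.8, 15.9 and 34.5 CPM. With single libraries left out, 4 to 18 rose (4 without Combination 3, 5 without ORIN1001 3, 7 without ORIN1001 2 and 18 without Combination 2) and 1 to 5 fell (1 without ORIN1001 2 or ORIN1001 3 and 5 without Combination 1), with medians from 0.15 to 0.40. With 11 inputs 3 rose, and with all 12 inputs 3 rose. Of 8 interferon receptors and their kinases, Jak2 and Ifngr1 fell by 0.50 ± 0.14 and 0.51 ± 0.16, and none rose; neither passed without Combination 2, Combination 3, ORIN1001 2 or ORIN1001 3.

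Sensors of nucleic acids were called in both directions. Among 31 tested genes of double-stranded RNA sensing, 3 rose (9.68%) and 5 fell (16.1%), with a median of -0.13. Of all genes, 17.3% rose and 15.8% fell. Oasl1, a relative of the OAS enzymes, had 42.7, 47.5 and 38.9 CPM with ORIN1001 and 88.6, 82.7 and 79.1 CPM with the combination (log2 fold change 0.96 ± 0.11, edgeR adjusted p = 0.00591). The RNA editing gene Adarb1 and the adaptor Ticam1 fell by 0.71 ± 0.13 and 0.82 ± 0.17 on the log2 scale. Adar, the editing enzyme induced by interferon, had overlapping values of 164, 153 and 144 CPM and 178, 161 and 169 CPM. With each library left out in turn, 2 to 4 rose and 1 to 5 fell (1 without ORIN1001 2 and 2 without Combination 3 or ORIN1001 3), with medians from -0.30 to -0.01. Of 17 genes of DNA sensing and the inflammasome, 5 rose (29.4%) and 1 fell (5.88%). The rises included Cgas (0.47 ± 0.12), the pore former Gsdmd (0.81 ± 0.22) and Nlrc4 (1.30 ± 0.36), and Ninj1 (-0.75 ± 0.19) fell. Across the 6 fits without 1 library, 0 to 4 rose (0 without Combination 3, ORIN1001 1, ORIN1001 2 or ORIN1001 3 and 1 without Combination 2) and 0 to 1 fell (0 without Combination 2, Combination 3, ORIN1001 2 or ORIN1001 3), with medians from -0.10 to 0.18.

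Chemokines and receptors that draw T cells into tissue rose in 7 of 12 tested members with no fall (median log2 fold change 1.39). Cxcl10 (chromosome 5, 92346638 to 92348889), a ligand of CXCR3 induced by interferons, had 19.5, 27.6 and 18.6 CPM with ORIN1001 and 90.3, 70.1 and 78.1 CPM with the combination, 3.64-fold higher (log2 fold change 1.86 ± 0.18, edgeR adjusted p = 0.00447). Cxcl9, the interferon-gamma-induced ligand of the same receptor, had 67.8, 83.6 and 47.8 CPM and 369, 210.2 and 248 CPM (log2 fold change 2.05 ± 0.27, edgeR adjusted p = 0.00668). Cxcl16, a ligand of CXCR6, had 54.2, 73.6 and 50.3 CPM and 139, 148 and 150.0 CPM (log2 fold change 1.30 ± 0.15, edgeR adjusted p = 0.00591). Each of the 3 genes rose more than 2-fold in the fit, and no combination library reached down to the ORIN1001 range. The lymph node homing receptor Ccr7 rose from 0.274, 0.282 and 0.119 CPM to 1.42, 2.37 and 1.16 CPM, a level of 12, 7 and 4 reads in the ORIN1001 libraries and 20, 29 and 19 in the combination libraries. When 1 library was left out, 5 to 7 rose and 0 to 1 fell (1 without ORIN1001 1), with medians from 1.24 to 1.58.

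Promoter windows of 4 called genes from these groups are shown because they hold letters that interferon-driven or class II factors are known to bind. RefSeq windows of 300 bases (250 before to 50 after the annotated start, GRCm38.p6) were searched on both strands, for GAAA, 2 bases of any kind and GAAA as the interferon-stimulated response element and for CTGATTGG as the class II Y box; the motifs share no letters in these windows, and capitals mark each match. The first motif occurs in 3.44% and the second in 4.10% of 32851 promoter windows. Gbp2 lies on the plus strand at chr3:142620413-142620712 and Cxcl10 on the minus strand at chr5:92348840-92349139. H2-Aa lies on the minus strand at chr17:34287774-34288073 and H2-Eb1 on the plus strand at chr17:34305617-34305916. Gbp2 and Cxcl10 hold 1 response element each, H2-Aa and H2-Eb1 1 Y box each, and Cxcl10 holds 1 Y box as well.
Gbp2: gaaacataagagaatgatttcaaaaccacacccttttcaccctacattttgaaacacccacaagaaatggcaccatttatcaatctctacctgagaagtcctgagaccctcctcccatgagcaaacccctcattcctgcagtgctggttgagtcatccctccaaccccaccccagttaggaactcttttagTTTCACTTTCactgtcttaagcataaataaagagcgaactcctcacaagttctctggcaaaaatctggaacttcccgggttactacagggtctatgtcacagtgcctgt
Cxcl10: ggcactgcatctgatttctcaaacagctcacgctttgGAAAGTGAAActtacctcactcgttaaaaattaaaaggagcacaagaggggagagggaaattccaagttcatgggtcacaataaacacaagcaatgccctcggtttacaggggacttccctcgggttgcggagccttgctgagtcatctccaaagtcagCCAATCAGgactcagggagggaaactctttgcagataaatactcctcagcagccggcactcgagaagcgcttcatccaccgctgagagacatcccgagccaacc
H2-Aa: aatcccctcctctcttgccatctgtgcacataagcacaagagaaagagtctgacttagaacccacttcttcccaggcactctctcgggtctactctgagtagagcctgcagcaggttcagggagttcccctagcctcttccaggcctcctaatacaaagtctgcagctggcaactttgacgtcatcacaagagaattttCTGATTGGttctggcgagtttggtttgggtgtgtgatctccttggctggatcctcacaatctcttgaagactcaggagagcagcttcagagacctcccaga
H2-Eb1: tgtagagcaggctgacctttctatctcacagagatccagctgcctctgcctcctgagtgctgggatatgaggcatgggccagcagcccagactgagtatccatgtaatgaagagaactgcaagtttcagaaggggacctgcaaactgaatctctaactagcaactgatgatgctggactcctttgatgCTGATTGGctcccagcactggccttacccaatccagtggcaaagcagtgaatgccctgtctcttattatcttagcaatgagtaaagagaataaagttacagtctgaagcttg

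Matches to the response element were found in 10 of 11 guanylate-binding and immunity-related GTPase genes with a promoter entry, out of 20 tested. Among class II genes, 2 of 7 promoters held the Y box, H2-Aa and H2-Eb1, and among class I genes 7 of 17 did. The GTPase promoters held 0 Y boxes. The response element was in 1 class II and 5 class I promoters. Of 7 T-cell chemokine and receptor promoters, that of Cxcl10 held the response element and those of Cxcl9 and Cxcl10 the Y box. Another motif, the gamma-activated site (TTC, 3 bases of any kind, GAA; 8.30% of all promoters), is not marked and may share letters with the response element. It was in 6 GTPase, 1 class II, 2 class I and 0 chemokine promoters. A match is a run of letters in a window and not a measured binding site. The gene with the Gbp2 window had 52.4, 50.9 and 30.5 CPM with ORIN1001 and 137, 68.3 and 90.8 CPM with the combination (log2 fold change 1.15 ± 0.29, edgeR adjusted p = 0.0246), and that with the H2-Aa window 36.7, 98.7 and 30.4 CPM and 253, 228 and 343 CPM (log2 fold change 2.32 ± 0.44, edgeR adjusted p = 0.0135).

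T-cell genes were higher with the combination, at low levels in both groups. Of 24 tested markers of T cells, 14 rose and 0 fell, with a median log2 fold change of 1.82. The list summed to 121, 129 and 128 CPM in the ORIN1001 libraries and 169, 123 and 175 CPM in the combination libraries, so the summed level of Combination 2 lay inside the ORIN1001 range. Cd8a, the co-receptor of cytotoxic T cells, had 0.732, 1.94 and 0.566 CPM with ORIN1001 and 4.98, 5.14 and 9.13 CPM with the combination (log2 fold change 2.61 ± 0.51, edgeR adjusted p = 0.0145). Cd4, the co-receptor of helper T cells, had 0.777, 1.69 and 0.298 CPM and 5.70, 3.76 and 6.19 CPM (log2 fold change 2.53 ± 0.56, edgeR adjusted p = 0.0185). Il2ra, the interleukin-2 receptor chain of activated and regulatory T cells, had 1.10, 2.14 and 1.46 CPM and 14.4, 11.02 and 9.93 CPM (log2 fold change 2.93 ± 0.31, edgeR adjusted p = 0.00498). The co-stimulatory receptor Cd28 rose by 2.02 ± 0.41 on the log2 scale. In fits on 5 libraries, 1 to 18 rose (1 without Combination 3, 4 without ORIN1001 1 or ORIN1001 3 and 7 without Combination 1 or Combination 2) and 0 to 1 fell (1 without ORIN1001 1), with medians from 1.51 to 2.53.

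Genes of T-cell checkpoints and their ligands rose in 11 of 18 tested members and fell in 1 (median log2 fold change 0.80). Lag3, an inhibitory receptor that binds class II molecules, had 2.06, 2.34 and 1.61 CPM with ORIN1001 and 11.8, 20.3 and 14.6 CPM with the combination, 7.78-fold higher (log2 fold change 2.96 ± 0.28, edgeR adjusted p = 0.00447). Havcr2, which encodes TIM-3 of exhausted T cells and myeloid cells, had 4.34, 6.42 and 4.58 CPM and 17.7, 21.1 and 17.6 CPM (log2 fold change 1.88 ± 0.21, edgeR adjusted p = 0.00539). Cd86, the co-stimulatory ligand of antigen-presenting cells, had 3.34, 5.89 and 2.98 CPM and 14.1, 14.8 and 12.1 CPM (log2 fold change 1.75 ± 0.29, edgeR adjusted p = 0.0105). Combination libraries exceeded all ORIN1001 libraries for these 3 genes, which were picked for small p. The inhibitory receptor Tigit rose by 2.61 ± 0.52 from low counts, 8, 13 and 6 reads with ORIN1001 and 24, 14 and 38 with the combination. Cd274, which encodes the ligand PD-L1 and was chosen after its value was seen, rose by 0.81 ± 0.22 on the log2 scale. On any 5 of the 6 libraries, 3 to 9 rose (3 without Combination 3 or ORIN1001 3, 6 without Combination 2 or ORIN1001 1 and 7 without ORIN1001 2) and 0 to 1 fell (0 without Combination 3, ORIN1001 2 or ORIN1001 3), with medians from 0.72 to 1.01.

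Natural killer and cytotoxic genes gave 3 rises (33.3%) and 1 fall (11.1%) of 9 tested, beside 17.3% and 15.8% of all genes. The activating receptor Klrk1 had 1.39, 4.88 and 1.34 CPM with ORIN1001 and 9.11, 9.88 and 9.56 CPM with the combination (log2 fold change 1.93 ± 0.50, edgeR adjusted p = 0.0266). Tbx21, the transcription factor T-bet, and the granule gene Nkg7 rose by 1.93 ± 0.43 and 1.76 ± 0.47. Granzyme A moved the other way, with Gzma at 1.83, 1.98 and 2.53 CPM and 0.997, 0.490 and 0.490 CPM (log2 fold change -1.67 ± 0.38, edgeR adjusted p = 0.0199). Granzyme B, chosen after its value was seen, was not called (1.30, 1.74 and 1.85 CPM and 2.35, 0.653 and 0.674 CPM), and Gzme, a granzyme of the same gene cluster, was among the 12 largest falls (log2 fold change -4.24 ± 0.77, 80, 17 and 103 reads with ORIN1001 and 2, 1 and 1 with the combination). Receptors of cytotoxic cells and called granzymes stood on opposite sides of 0. With single libraries left out, 0 to 3 rose (0 without Combination 3 or ORIN1001 3 and 1 without ORIN1001 1) and 0 to 2 fell (0 without Combination 3, ORIN1001 2 or ORIN1001 3 and 2 without Combination 1), with medians from -0.04 to 0.81. Of 6 B-cell and plasma-cell markers, Prdm1 rose (0.60 ± 0.19) and none fell, and Prdm1 passed in none of the 6 fits without 1 library.

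Dendritic cell genes rose in 7 of 12 tested members with no fall (median log2 fold change 1.05). With each library left out in turn, 6 to 7 rose and 0 to 1 fell (1 without ORIN1001 1), with medians from 0.96 to 1.24. Itgax, the integrin CD11c of dendritic cells and some macrophages, had 17.9, 25.2 and 12.5 CPM with ORIN1001 and 85.6, 76.1 and 89.4 CPM with the combination (log2 fold change 2.18 ± 0.24, edgeR adjusted p = 0.00539). Siglech, a surface marker of plasmacytoid dendritic cells, had 0.366, 0.404 and 0.268 CPM and 2.42, 2.53 and 2.94 CPM (log2 fold change 2.92 ± 0.32, edgeR adjusted p = 0.00539). Clec9a, the receptor of cross-presenting dendritic cells, had 0.206, 0.726 and 0.447 CPM and 2.63, 4.65 and 4.17 CPM (log2 fold change 3.10 ± 0.49, edgeR adjusted p = 0.00952). Markers of these 2 dendritic types were thus near the detection level with ORIN1001 and above it in all 3 combination libraries. Ccr9, a homing receptor also found on plasmacytoid cells, rose by 3.65 ± 0.47 on the log2 scale from 6, 6 and 2 reads to 25, 21 and 32 reads.

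**Figure D3:**
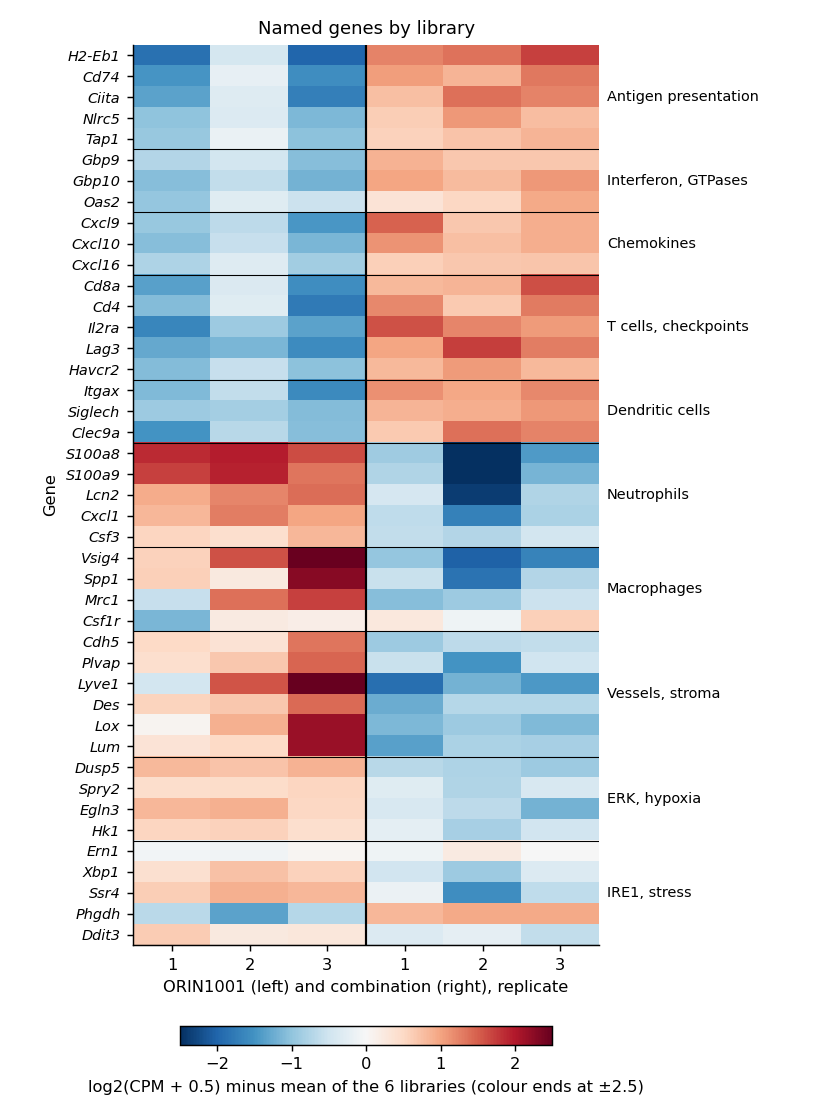
Values of named genes in each library. Rows are genes grouped by the topics of the text, and columns are ORIN1001 1 to 3 and combination 1 to 3. Colour gives log2 of (CPM + 0.5) minus the mean of that gene over the 6 libraries, with values past 2.5 drawn as 2.5. Vsig4, drawn with the macrophage genes, is not on the macrophage list. Genes of antigen presentation, T cells and dendritic cells are red in the combination columns, and those of neutrophils, vessels and stroma are blue there.

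Neutrophil genes were lower in the combination tumours. Of 13 tested markers, 8 fell and 1 rose, with a median log2 fold change of -2.16 against 15.8% of all genes that fell. The member that rose was lactoferrin Ltf, which is on the milk gene list as well (log2 fold change 1.97). S100a8, a subunit of the calprotectin of neutrophils, had 23.8, 25.7 and 20.2 CPM with ORIN1001 and 3.13, 0.245 and 2.02 CPM with the combination, a 12.6-fold fall (log2 fold change -3.66 ± 0.56, edgeR adjusted p = 0.00918). Its partner S100a9 had 21.9, 25.3 and 16.9 CPM and 3.56, 0.327 and 2.57 CPM (log2 fold change -3.28 ± 0.57, edgeR adjusted p = 0.0115). Combination 2 was lowest for both, and the other 2 combination libraries were also far below the ORIN1001 range. Retnlg, made by mature neutrophils, was counted 43, 26 and 22 times with ORIN1001 and 1, 1 and 2 times with the combination. Lcn2, an iron-binding protein that epithelial cells make as well, had 1713, 2081 and 2378 CPM and 672, 173 and 532 CPM (log2 fold change -2.16 ± 0.44, edgeR adjusted p = 0.0157). Across the 6 fits without 1 library, 0 to 1 rose (0 without Combination 3) and 4 to 8 fell (4 without Combination 3 and 5 without ORIN1001 2), with medians from -2.57 to -1.54. In libraries thinned to equal depth only 11 of the 13 markers were tested. Of these, 1 rose and 6 fell, and the median of -1.02 covers fewer genes than the -2.16.

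Attractants and growth factors of neutrophils gave 1 rise and 2 falls of 10. Cxcl1, a ligand of the neutrophil receptor CXCR2, had 29.9, 41.2 and 33.3 CPM with ORIN1001 and 10.5, 4.82 and 9.32 CPM with the combination (log2 fold change -2.07 ± 0.28, edgeR adjusted p = 0.00741). Csf3, the neutrophil growth factor G-CSF, had 5.99, 5.49 and 7.47 CPM and 2.42, 2.20 and 2.76 CPM (log2 fold change -1.36 ± 0.24, edgeR adjusted p = 0.0125). Csf1, the growth factor of macrophages, rose from 91.0, 103 and 91.4 CPM to 162, 175 and 179 CPM (log2 fold change 0.86 ± 0.10, edgeR adjusted p = 0.00591). The neutrophil and the macrophage growth factor thus changed in opposite directions, each with no overlap between groups. Csf1 was the 1 member of the list that rose. In each fit without 1 library, 1 member of the list rose and 2 fell.

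Few macrophage markers were called as higher, and the share called as lower was near that of all genes. Of 24 tested, 1 rose (4.17%) and 4 fell (16.7%), beside 17.3% and 15.8% of all genes. The median log2 fold change was 0.22. The colony-stimulating factor receptor Csf1r, carried by macrophages in general and chosen after its value was seen, had overlapping values of 53.1, 137 and 131 CPM with ORIN1001 and 141, 109 and 178 CPM with the combination. The fractalkine receptor Cx3cr1 rose by 0.90 ± 0.26 on the log2 scale. Vsig4, a complement receptor, is not 1 of these 24 and was picked as 1 of the 12 largest falls. It had 3.04, 6.58 and 12.7 CPM and 0.712, 0.0817 and 0.245 CPM (log2 fold change -4.38 ± 0.75, edgeR adjusted p = 0.0112). The 4 called falls of the list included Spp1, the secreted osteopontin. Spp1 had 234, 184 and 743 CPM and 105, 42.4 and 92.9 CPM (log2 fold change -2.27 ± 0.57, edgeR adjusted p = 0.0243). The mannose receptor Mrc1 had 29.9, 117 and 148 CPM and 21.1, 23.6 and 30.6 CPM, called lower (log2 fold change -1.97 ± 0.51) although ORIN1001 1 lay inside the combination range. Arginase Arg1 fell by 1.37 ± 0.37, also with overlapping groups. When 1 library was left out, 0 to 2 rose (0 without Combination 1, Combination 3, ORIN1001 1 or ORIN1001 3 and 2 without ORIN1001 2) and 0 to 4 fell (0 without Combination 3 or ORIN1001 3, 1 without Combination 2 and 2 without ORIN1001 2), with medians from -0.02 to 0.26.

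Vessel genes were lower. Of 19 tested endothelial markers, 8 fell and 1 rose (median log2 fold change -0.94). Cdh5, the cadherin of vessel walls, had 24.6, 22.3 and 44.1 CPM with ORIN1001 and 8.90, 10.8 and 11.03 CPM with the combination (log2 fold change -1.57 ± 0.28, edgeR adjusted p = 0.0119). Plvap, the protein of vessel fenestrae, had 14.3, 17.2 and 29.8 CPM and 6.98, 3.43 and 7.35 CPM (log2 fold change -1.78 ± 0.37, edgeR adjusted p = 0.0162). The lymphatic marker Lyve1, which some macrophages carry too, had 2.77, 12.9 and 46.7 CPM and 0.712, 1.47 and 1.16 CPM (log2 fold change -4.22 ± 1.00, edgeR adjusted p = 0.0213). ORIN1001 3 held the highest value of all 3 genes, and the ORIN1001 values of Lyve1 spread more than 10-fold. In fits on 5 libraries, 0 to 1 rose (0 without Combination 1, Combination 2, Combination 3, ORIN1001 2 or ORIN1001 3) and 2 to 7 fell (2 without Combination 3, 3 without Combination 2 or ORIN1001 3 and 4 without ORIN1001 2), with medians from -1.12 to -0.58. The median without ORIN1001 3 was -0.58.

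Supporting cells of vessels and fibroblasts followed in most called members. Of 12 pericyte and smooth muscle markers, 2 rose and 6 fell (median -1.08). Des, the filament protein desmin of muscle and pericytes, had 2.47, 2.74 and 4.91 CPM with ORIN1001 and 0.356, 0.735 and 0.735 CPM with the combination (log2 fold change -2.46 ± 0.44, edgeR adjusted p = 0.0120). Rgs5, a regulator of G-protein signalling in pericytes, fell by 1.13 ± 0.28, and the adhesion molecule Mcam, which tumour cells can carry, rose by 0.72 ± 0.13 on the log2 scale. Of 17 fibroblast markers, 1 rose and 6 fell (median -0.76). The crosslinking enzyme Lox had 16.4, 29.2 and 71.2 CPM and 6.83, 8.08 and 6.99 CPM (log2 fold change -2.42 ± 0.50, edgeR adjusted p = 0.0162), with ORIN1001 3 highest. The proteoglycan Lum fell by 2.52 ± 0.57. Fibulin Fbln1 was the member that rose, from 26.5, 30.1 and 36.2 CPM to 68.9, 70.6 and 61.8 CPM (log2 fold change 1.12 ± 0.14, edgeR adjusted p = 0.00647). On any 5 of the 6 libraries, 1 to 2 rose (2 without ORIN1001 3) and 0 to 8 fell (0 without Combination 3 and 3 without Combination 2, ORIN1001 2 or ORIN1001 3), with medians from -1.003 to -0.29. Without ORIN1001 3 the fibroblast median was -0.29. Of the pericyte markers, 1 to 2 rose (1 without Combination 3, ORIN1001 1, ORIN1001 2 or ORIN1001 3) and 2 to 5 fell (2 without Combination 3 or ORIN1001 3) when 1 library was left out.

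Of 35 extracellular matrix genes, 3 rose and 13 fell (median log2 fold change -0.53). Comp, a matrix protein of cartilage and tendon also made by activated fibroblasts, had the largest fall of the named genes, from 96, 81 and 147 reads with ORIN1001 to 2, 0 and 3 reads with the combination (log2 fold change -4.76 ± 0.62, edgeR adjusted p = 0.00692, a fitted value that depends on the prior count). Loxl2, another crosslinking enzyme, fell by 1.38 ± 0.21. The main fibrillar collagen Col1a1, chosen after its value was seen, had overlapping values of 136, 239 and 473 CPM and 158, 448 and 220.2 CPM. With single libraries left out, 1 to 4 rose (1 without ORIN1001 2) and 4 to 16 fell (4 without Combination 3 and 8 without Combination 2, ORIN1001 2 or ORIN1001 3), with medians from -0.82 to -0.13. The median nearest to 0 came without ORIN1001 3.

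Of 8 adipocyte markers, 1 rose and 4 fell: the fatty acid carrier Fabp4 fell by 2.72 ± 0.58, the regulator Pparg fell by 2.13 ± 0.37, and Cebpa rose by 1.13 ± 0.23. Platelet factor Pf4 fell by 2.12 ± 0.47 and was the 1 called member of 4 red cell and platelet markers. Among 5 muscle markers the desmin gene named above was the 1 that fell. Of 3 mast cell and eosinophil markers, Mcpt8 fell, from 27, 13 and 84 reads to 0, 0 and 2 reads. Of 9 nerve markers, Ncam1 rose (1.68 ± 0.37) and Sox10 fell (-0.51 ± 0.12), the latter also a marker of basal mammary cells. Of the adipocyte markers, 0 to 1 rose (0 without ORIN1001 3) and 1 to 4 fell (1 without Combination 3 and 2 without ORIN1001 3) when 1 library was left out.

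**Figure D4:**
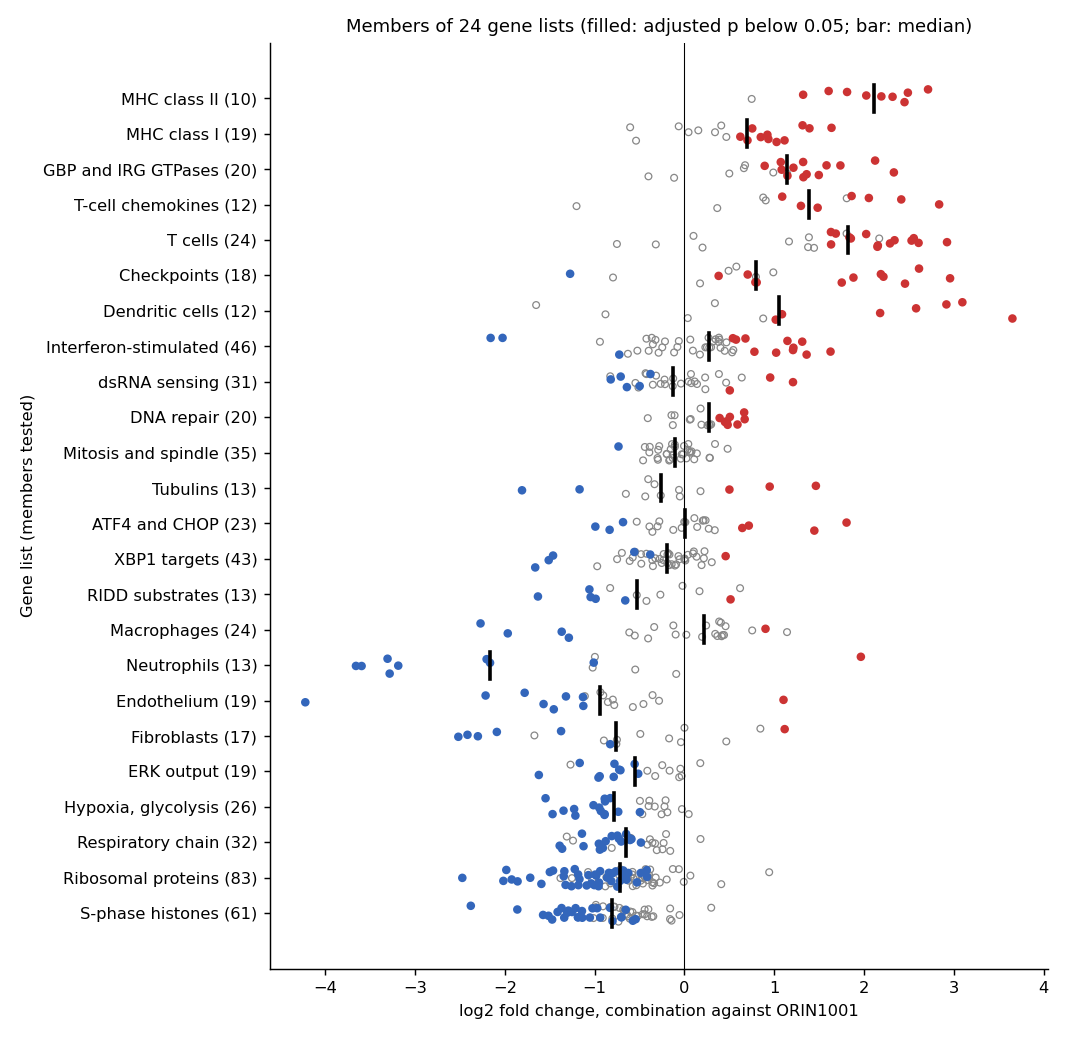
Log2 fold changes of all tested members of 24 gene lists, combination against ORIN1001; each point is 1 gene (filled where called at an adjusted p of 0.05), the black bar is the list's median, and the number of tested members stands beside the name. The medians of the class II, T-cell and GTPase lists lie to the right of 0, and those of the neutrophil, ribosomal protein, histone and hypoxia lists to the left.

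Epithelial identity genes were called in both directions. Of 16 luminal markers, 2 rose (12.5%) and 3 fell (18.75%), with a median of -0.04. Of 13 basal markers, 0 rose and 1 fell (7.69%), with a median of 0.05. Of all genes, 17.3% rose and 15.8% fell. The tight junction gene Cldn4, whose loss marks claudin-low tumours, had 209, 160.4 and 151 CPM with ORIN1001 and 422, 373 and 423 CPM with the combination (log2 fold change 1.23 ± 0.15, edgeR adjusted p = 0.00591). Foxa1, the luminal pioneer factor, had 37.2, 21.7 and 29.4 CPM and 6.55, 5.72 and 11.5 CPM (log2 fold change -1.89 ± 0.31, edgeR adjusted p = 0.0100). The progenitor marker Prom1 and the oestrogen receptor Esr1 fell by 1.29 ± 0.21 and 0.72 ± 0.15. Junction genes gave 5 rises (25.0%) and 2 falls (10.0%) of 20. Cldn1 and Cldn8 rose by 0.97 ± 0.21 and 0.89 ± 0.15, and Tjp1 fell by 0.57 ± 0.14. Milk genes were called in 3 of 8, or 37.5%, beside 33.1% of all genes. The casein Csn3 had 507, 1059 and 923 CPM and 163, 40.2 and 92.7 CPM (log2 fold change -3.07 ± 0.50, edgeR adjusted p = 0.0103). Xdh fell by 0.86 ± 0.21, and lactoferrin Ltf, also on the neutrophil list, rose by 1.97 ± 0.42 on the log2 scale. Of the luminal markers, 1 to 3 rose (1 without Combination 3, ORIN1001 2 or ORIN1001 3) and 2 to 4 fell when 1 library was left out. Of the basal markers, 0 to 1 rose (1 without ORIN1001 1) and 0 to 2 fell (0 without Combination 3, ORIN1001 2 or ORIN1001 3 and 2 without Combination 1) when 1 library was left out. Of the junction genes, 2 to 5 rose (2 without Combination 3 or ORIN1001 3 and 3 without Combination 1 or ORIN1001 2) and 0 to 2 fell (0 without Combination 3, ORIN1001 1, ORIN1001 2 or ORIN1001 3 and 1 without Combination 2) when 1 library was left out.

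Regulators of the epithelial to mesenchymal switch were called in both directions, 2 higher and 2 lower of 16. Each share was 12.5%, beside 17.3% and 15.8% of all genes. Tgfbr1, a receptor for TGF-beta, had 53.9, 62.6 and 45.1 CPM with ORIN1001 and 141, 189 and 168 CPM with the combination (log2 fold change 1.63 ± 0.16, edgeR adjusted p = 0.00447). Axl, a receptor kinase linked to drug resistance, had 60.5, 84.9 and 72.04 CPM and 173, 223 and 211 CPM (log2 fold change 1.48 ± 0.16, edgeR adjusted p = 0.00498). Both receptors rose more than 2-fold, with no overlap between groups. The transcription factors Snai1 and Prrx1 fell by 1.81 ± 0.49 and 1.41 ± 0.34, the latter also a fibroblast gene. Of the switch regulators, 2 rose and 0 to 2 fell (0 without Combination 3 and 1 without Combination 1, Combination 2 or ORIN1001 3) when 1 library was left out.

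Genes that ERK signalling induces were lower. Of 19 tested, 10 fell and 0 rose (median log2 fold change -0.55). With each library left out in turn, 0 rose and 6 to 10 fell (6 without Combination 3), with medians from -0.68 to -0.45. Dusp5, a phosphatase that dampens ERK and is switched on by it, had 35.5, 33.1 and 36.9 CPM with ORIN1001 and 12.2, 11.6 and 10.5 CPM with the combination (log2 fold change -1.62 ± 0.13, edgeR adjusted p = 0.00447). Phlda1 had 524, 501 and 594 CPM and 260.5, 222 and 239 CPM (log2 fold change -1.17 ± 0.12, edgeR adjusted p = 0.00447). Spry2, a feedback inhibitor of receptor kinases, had 145, 146 and 155 CPM and 86.4, 63.4 and 80.2 CPM (log2 fold change -0.96 ± 0.13, edgeR adjusted p = 0.00745). Values within each group were close together for these genes, which were picked for small p. Targets of NF-kB were called in both directions, 4 higher and 4 lower of 17 (23.5% each, beside 17.3% and 15.8% of all genes). The adhesion molecules Icam1 and Vcam1 rose by 1.25 ± 0.17 and 1.62 ± 0.25, and Nfkb2 fell by 0.69 ± 0.12. Of the NF-kB targets, 2 to 3 rose (2 without Combination 2, Combination 3, ORIN1001 1, ORIN1001 2 or ORIN1001 3) and 2 to 4 fell (2 without Combination 3, ORIN1001 2 or ORIN1001 3) when 1 library was left out.

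Hypoxia and glycolysis genes fell in 15 of 26 tested members and rose in 0 (median log2 fold change -0.78). Across the 6 fits without 1 library, 0 rose and 10 to 16 fell, with medians from -0.93 to -0.64. Egln3, a HIF prolyl hydroxylase that HIF itself induces, had 316, 332 and 255 CPM with ORIN1001 and 135, 113 and 78.6 CPM with the combination (log2 fold change -1.47 ± 0.20, edgeR adjusted p = 0.00745). Ankrd37, another HIF target, had 46.1, 38.3 and 48.3 CPM and 21.2, 21.1 and 15.1 CPM (log2 fold change -1.21 ± 0.17, edgeR adjusted p = 0.00776). Hexokinase Hk1, the first step of glycolysis, had 228, 237 and 211 CPM and 134, 88.5 and 113 CPM (log2 fold change -1.01 ± 0.15, edgeR adjusted p = 0.00918). The vessel growth factor Vegfa, chosen after its value was seen, had overlapping values of 264, 187 and 173 CPM and 168, 215 and 91.4 CPM.

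Respiratory chain genes of the nucleus fell in 17 of 32 tested members with no rise (median log2 fold change -0.65). Ndufv2, a subunit of complex I, had 90.7, 93.9 and 95.5 CPM with ORIN1001 and 61.2, 33.7 and 50.9 CPM with the combination (log2 fold change -0.94 ± 0.20, edgeR adjusted p = 0.0166). Ribosomal protein genes fell in 42 of 83 with no rise (median -0.72). Rpl29 had 25.0, 32.3 and 33.5 CPM and 12.7, 3.76 and 6.37 CPM (log2 fold change -1.98 ± 0.39, edgeR adjusted p = 0.0145), and Rps19 318, 372 and 385 CPM and 242, 155 and 204 CPM (log2 fold change -0.84 ± 0.17). Combination 2 held the lowest value of Ndufv2, Rpl29 and Rps19. When 1 library was left out, 0 to 21 respiratory genes fell (0 without ORIN1001 2 or ORIN1001 3, 1 without Combination 3 and 5 without ORIN1001 1), with medians from -0.89 to -0.44. In fits on 5 libraries, 0 to 70 ribosomal protein genes fell (0 without Combination 3, 2 without ORIN1001 2 or ORIN1001 3 and 70 without Combination 1), with medians from -0.99 to -0.48. Histone genes expressed in S phase fell in 27 of 61 (median -0.80), Hist1h2bq among them with 44, 42 and 35 reads and 2, 3 and 5 reads. On any 5 of the 6 libraries, 3 to 46 histone genes fell (3 without ORIN1001 2, 4 without ORIN1001 3, 7 without Combination 3 and 46 without Combination 1), with medians from -1.19 to -0.54. With all 12 inputs in the fit, 0 respiratory, 25 ribosomal protein and 4 histone genes fell. With 11 inputs these falls numbered 23, 58 and 36. Histone genes are near-identical copies and their mRNAs carry no poly(A) tail, a form that this kit without poly(A) selection can capture.

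Gene length moved with these results. Of the located members, 59.4% of the respiratory and 98.8% of the ribosomal protein genes lie in the shortest of 4 equal classes of protein-coding genes by genomic span. For histone genes this check is void, since 1 of 61 matched a location by symbol. Protein-coding genes in that class (374 to 10436 bp in RefSeq GRCm38.p6) had a median log2 fold change of -0.26, with 314 higher and 849 lower of 3280. In the longest class (56818 to 2390387 bp) 521 of 3280 genes were higher and 498 lower, and the median was 0.02. Relative to the mean of the ORIN1001 libraries, the shortest class lay at -0.16, -0.37 and -0.21 in combination libraries 1 to 3 and at -0.06, 0.03 and 0.03 in the ORIN1001 libraries. Genes that matched no RefSeq location, 88.4% of them gene models or bare identifiers, went the other way: 924 of 2015 rose and 109 fell (median 1.19). Small nucleolar RNAs gave 22 rises and 0 falls of 66. The part of length, RNA quality and depth in these differences was not tested.

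Of 10 tested mitochondrial mRNAs, mt-Co3 and mt-Co2 fell by 1.94 ± 0.48 and 1.91 ± 0.59 on the log2 scale and none rose. Cholesterol synthesis gave 1 rise (4.76%) and 6 falls (28.6%) of 21. Srebf2 rose (0.44 ± 0.13), and the falls included Nsdhl (-1.13 ± 0.27). Among 13 long non-coding RNAs, 3 rose (23.1%) and 1 fell (7.69%). Of all genes, 17.3% rose and 15.8% fell. The imprinted antisense RNA Kcnq1ot1 had 886, 495 and 419.7 CPM with ORIN1001 and 1623, 3495 and 1849 CPM with the combination (log2 fold change 1.95 ± 0.37, edgeR adjusted p = 0.0139). Xist, which silences the inactive X chromosome, had 1152, 1031 and 850.1 CPM and 2062, 5407 and 2283 CPM (log2 fold change 1.68 ± 0.37, edgeR adjusted p = 0.0177). Combination 2 was the highest library for both by a wide margin, and the nuclear RNA Malat1, chosen after its value was seen, had overlapping values. Of the mitochondrial mRNAs, 0 rose and 0 to 7 fell (0 without Combination 3, ORIN1001 2 or ORIN1001 3, 1 without ORIN1001 1 and 7 without Combination 1) when 1 library was left out. Of the cholesterol genes, 0 to 2 rose (0 without Combination 2, Combination 3, ORIN1001 2 or ORIN1001 3 and 2 without ORIN1001 1) and 0 to 6 fell (0 without ORIN1001 2, 1 without Combination 3 or ORIN1001 3 and 2 without Combination 2 or ORIN1001 1) when 1 library was left out. Of the long non-coding RNAs, 1 to 3 rose (1 without ORIN1001 2 or ORIN1001 3) and 0 to 4 fell (0 without Combination 3, ORIN1001 2 or ORIN1001 3, 3 without Combination 1 and 4 without Combination 2) when 1 library was left out.

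The largest single rises belonged to genes that were close to silent with ORIN1001. Fut9, a fucosyltransferase that makes the Lewis X sugar, had 1.62, 2.78 and 1.64 CPM with ORIN1001 and 30.5, 43.4 and 33.8 CPM with the combination, 18.0-fold higher (log2 fold change 4.17 ± 0.27, edgeR adjusted p = 0.00447). Scube3, a secreted ligand of the TGF-beta receptor, had 0.549, 0.525 and 0.655 CPM and 8.54, 14.9 and 10.7 CPM (log2 fold change 4.29 ± 0.31, edgeR adjusted p = 0.00447). Ntrk3, the receptor kinase TrkC, had 0.480, 1.21 and 0.506 CPM and 5.13, 13.1 and 5.76 CPM (log2 fold change 3.47 ± 0.53, edgeR adjusted p = 0.00918). These 3 genes were low in every ORIN1001 library and clearly read in every combination library. The rule that picked them asked for large rises without overlap, so this separation follows from the choice. The glucose transporter Slc2a12 rose by 4.68 ± 0.65 and the GABA receptor subunit Gabbr2 by 4.02 ± 0.45, from 7, 3 and 0 reads to 30, 36 and 44 reads and from 4, 6 and 4 reads to 28, 27 and 48 reads. Itprid1, Fam81a, Tdrd5, Shisa8, Irx4, Olfr111 and Trmt9b completed the 12, with log2 fold changes between 3.44 and 4.57.

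Among the 12 largest falls, Mme had the deepest counts. Mme, the membrane peptidase neprilysin (CD10) of myoepithelial and stromal cells, had 76.6, 88.5 and 75.9 CPM with ORIN1001 and 8.97, 1.88 and 6.50 CPM with the combination, a 13.7-fold fall (log2 fold change -3.78 ± 0.43, edgeR adjusted p = 0.00539). The nucleoside transporter Slc28a3 fell by 3.74 ± 0.74 and the growth factor Alkal2, a ligand of the ALK kinase, by 4.04 ± 0.68. The lung surfactant protein Sftpd and the ficolin Fcna, both innate immune lectins, fell by 4.59 ± 0.82 and 4.36 ± 0.89, on 118, 122 and 41 and 116, 91 and 520 reads with ORIN1001 against 3, 0 and 2 and 8, 1 and 6 with the combination. Saa2, an acute phase protein, was uneven within the ORIN1001 group, at 0.503, 8.76 and 1.99 CPM, and fell by 3.72 ± 1.14. Dcpp1 and Sez6 fell by 4.15 ± 0.90 and 3.95 ± 1.10. Vsig4, Lyve1, Comp and Gzme, described above, made up the rest of the 12.

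TE counts rose across most names when they were scaled with the genes. Of 1034 TE names tested on the joint table, 844 (81.6%) were higher and 14 (1.35%) lower with the combination, with a median log2 fold change of 1.14. The TE share averaged 13.1 ± 1.89% (SD, n = 3) with ORIN1001 and 23.5 ± 5.28% (SD, n = 3) with the combination (exact two-sided permutation test, p = 0.1, the smallest that 3 against 3 can give). When TE names were scaled to each other instead, 53 (5.11%) were higher and 181 (17.4%) lower, and 72 names changed from higher to lower. That scaling centres the names by construction. Without Combination 2, 725 names were called on the joint table. In a fit with all 12 input libraries, which share 1 estimate of spread, no TE name passed in edgeR's test (31 at an unadjusted p under 0.05). With 11 inputs, without Docetaxel 3, 851 of 1062 names were higher and 14 lower. On the 6 libraries, DESeq2 and limma-voom called 879 and 903. The share of ribosomal RNA loci and of unlocated gene models moved the same way, and their part in the TE rise was not tested.

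Families differed in how far they shifted. Older LINE names, remnants of long interspersed elements, rose in 126 of 138 (median log2 fold change 1.17), and the young L1 families that can still move rose in 6 of 6 (median 0.82). B2 and B3 SINEs, short elements transcribed by RNA polymerase III, rose in 5 of 5 (median 0.91). The young L1 and the B2 and B3 medians lay below the 1.14 of all names, of which 81.6% rose. Scaled to each other, 0 young L1 names rose and 2 fell (median -0.32). For B2 and B3 under that scaling, 0 rose and 3 fell (median -0.23). MERVL and related LTR names gave a median of 1.32, DNA transposons 1.33, and satellites 0.52 with 3 higher and 1 lower of 6. Reads of satellites, in sum, went the other way, with 0.318, 0.336 and 0.355% of gene plus TE counts with ORIN1001 and 0.291, 0.289 and 0.274% with the combination. The differences between families were not tested. The young L1 names together took 0.193, 0.160 and 0.149% of gene plus TE counts with ORIN1001 and 0.257, 0.332 and 0.256% with the combination.

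All 14 TE names that were lower under the gene scaling were also lower when scaled to each other. The second scaling moved the median of all names from 1.14 to 0.01. Names already below 0 were set to move further down, so this overlap is no separate support. LTR37-int had 19.9, 18.6 and 25.5 CPM with ORIN1001 and 8.65, 5.17 and 6.18 CPM with the combination (log2 fold change -1.68 ± 0.23, edgeR adjusted p = 0.00770). ERVB4_1B-LTR_MM had 16.3, 24.4 and 22.7 CPM and 12.5, 8.02 and 7.81 CPM (log2 fold change -1.16 ± 0.24, edgeR adjusted p = 0.00770). RMER17B2 and RLTR6_Mm fell by 0.90 ± 0.18 and 0.79 ± 0.20. The names given so far are LTR names of endogenous retroviruses, and they fell while 81.6% of names rose. The 14 also held 2 DNA transposon names, 1 older LINE name and 1 satellite name. Of the DNA transposon names, MamRep564 fell by 0.78 ± 0.27. Among names with an average log2 CPM of at least 0, LTR77 had the largest rise. It had 1.28, 0.200 and 0.420 CPM with ORIN1001 and 2.19, 8.54 and 2.87 CPM with the combination (log2 fold change 2.76 ± 0.75, edgeR adjusted p = 0.0111). Combination 2 was more than 2-fold above the other 2 combination libraries. Below that level, the DNA transposon name UCON25 rose further, by 3.68 ± 0.67 on the log2 scale. 53 names were higher under both scalings.

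**Figure D5:**
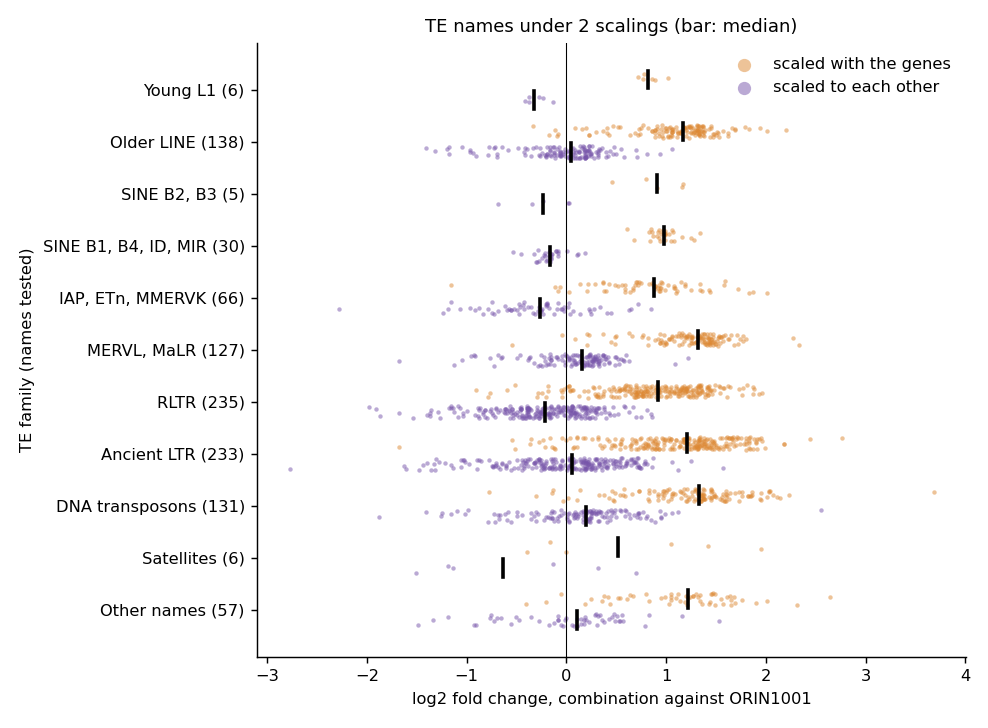
Log2 fold change of every tested TE name by family, combination against ORIN1001, with TE names scaled together with the genes (orange) and scaled to each other (purple); each point is 1 name and the black bar is the family median. The gene scaling puts each family's median above 0, and the scaling to each other centres the names on 0.

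Whether docetaxel acted differently with ORIN1001 than without it was tested as the difference between combination minus ORIN1001 and docetaxel minus vehicle, which share no library. With all 12 input libraries, 0 of 17768 genes passed in edgeR's test (3134 at an unadjusted p under 0.05, smallest adjusted p 0.0942), while DESeq2 called 791 and limma-voom 3985. Without Docetaxel 3, which leaves 2 docetaxel libraries, edgeR called 1527 of 18475 genes (8.27%), 932 (5.04%) above 0 and 595 (3.22%) below 0. The number of differences thus depends on 1 library: Docetaxel 3 had 3.27 M gene counts and a TE share of 39.2%, and leaving out any other library gave 0. In the 11 libraries, Cxcl9 had a log2 fold change of 2.06 with ORIN1001 on board and -1.66 without it, a difference of 3.71 ± 0.77 (edgeR adjusted p = 0.0369). Cd8a had 2.61 and -0.67, a difference of 3.27 ± 0.71 (edgeR adjusted p = 0.0369), and Ciita 2.19 and -0.21, a difference of 2.40 ± 0.59 (edgeR adjusted p = 0.0405). For these 3 genes the fold change was positive with the inhibitor and negative without it. The values without it rest on 2 docetaxel libraries and are given here without a test against 0. Of their lists, 1 of 24 T-cell markers, 1 of 10 class II genes and 2 of 12 chemokine genes passed above 0.

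Single vessel and neutrophil genes gave differences below 0 in the same 11 libraries. Sox17, an arterial transcription factor, had -2.22 with ORIN1001 and 1.37 without it, a difference of -3.59 ± 0.70 (edgeR adjusted p = 0.0369), and Cdh5 -1.57 and 0.69 (difference -2.26 ± 0.40). S100a8 had -3.65 and -0.58 (difference -3.07 ± 0.71, edgeR adjusted p = 0.0379). By list, 4 of 18 checkpoint genes lay above 0, 5 of 19 endothelial, 2 of 13 neutrophil and 5 of 12 pericyte genes below 0, and 25 of 61 histone genes below 0. Xbp1 was not among them: its log2 fold changes were -1.14 and -0.45, a difference of -0.69 ± 0.29 (edgeR adjusted p = 0.141). None of the differences named here passed with all 12 libraries.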

How the data were processed

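Tumour input RNA was made into stranded total RNA libraries with ribosomal RNA depletion, per the labels' protocols, and the submitters' processing notes list the build mm10 with featureCounts 2.0.3, STAR 2.7.3a and fastp 0.23.2. The authors deposited whole-number counts per Ensembl gene and per TE name; how multi-mapping reads and strand were handled is not given in the sources used here. Symbols matched 53274 of 53465 gene rows, and RefSeq GRCm38.p6 gave a location for 37603. Columns were assigned by their names, and the comparison was fitted on its 6 libraries alone.

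Genes were filtered with filterByExpr (minimum count 10, total 15), scaled with TMM and tested with edgeR 4.0.16 (quasi-likelihood, two-sided, Benjamini-Hochberg over all genes, threshold 0.05) in R 4.3.3; TE names were tested on a joint table with the genes. SE is the log2 fold change divided by the square root of F, and n = 3 per group unless a library is left out, which leaves 2. The script was tested on simulated data. DESeq2 1.42.0 and limma 3.58.1 were alternatives, as were other scalings, filters, thinned counts, added libraries and each library left out. The comparison and its 52 gene lists were chosen with earlier results of these data known; its libraries follow from their labels. Text genes are the 12 largest rises and falls (log2 CPM of at least 0, groups without overlap, no gene models), Ern1, Xbp1 and Trp53. Up to 4 members per list with the smallest p join them. TE names are the largest called rises and falls with a log2 CPM of at least 0. Some genes that this rule names are not reported here. Adar, B2m, Cd274, Cdkn1a, Col1a1, Csf1r, Ddit3, Gbp2, Gzmb, H2-Aa, Ifit1, Krt14, Krt18, Malat1, Mki67, Tubb5 and Vegfa were added after their values were seen. Replicates differed by more than sampling noise (chi-square per degree of freedom 12.6 to 53.2), so none was taken for a repeat of another.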

Additional observations from a re-analysis of the deposited data

Results flagged for a closer look

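The effect of docetaxel with and without ORIN1001 differed in 1527 genes by edgeR's test of the difference itself when Docetaxel 3 was left out, and in 0 genes with all 12 libraries (3134 at an unadjusted p under 0.05, 791 by DESeq2 and 3985 by limma-voom). Among the genes named in the text or chosen by its rule, the 12 with the largest differences are given here as log2 fold change with ORIN1001 minus log2 fold change without it. Above 0 were Ccr9 at 4.51, Cxcl9 at 3.71, Tigit at 3.31, Cd8a at 3.27, Tdrd5 at 3.26, Gabbr2 at 3.14, Gbp10 at 3.13 and Kcnq1ot1 at 3.01. Homing and inhibitory receptors of lymphoid cells stand beside genes with no known immune role, such as the GABA receptor subunit Gabbr2. Below 0 were the vessel factor Sox17 at -3.59, desmin (Des) at -3.38, the histone gene Hist1h2bq at -3.24 and the neutrophil gene S100a8 at -3.07. Docetaxel 3 had 3.27 M gene counts and the other 11 inputs between 11.85 M and 63.3 M.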

How the results depend on the processing

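Counts of called genes were within 1.5 times of 5489 under DESeq2, other scalings, other filters, 11 inputs and thinned counts, the last chosen after the data were seen. They were 8583 with limma-voom, 2244 with all 12 inputs and 2748 with the replicate block. Leaving out each library in turn gave 1596 to 5935 called genes (below the count with all 6 by more than 1.5 times without ORIN1001 2, ORIN1001 3 and Combination 3), 707 to 873 called TE names and a TE share 7.34 to 12.3 percentage points higher with the combination. No gene called with 6 libraries was called in the other direction under any of these settings. Calls of TE names numbered 234 when scaled to each other and 865 with 11 inputs. With all 12 inputs edgeR's test called 0 TE names (31 at an unadjusted p under 0.05). The test of the taxane effect with and without ORIN1001 gave 1527 genes with 11 inputs, 791 with DESeq2 and 3985 with limma-voom, and 0 under the replicate block and when any library other than Docetaxel 3 was left out. The cause of these shifts was not tested.

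Of 169 called genes named in the text, 95 kept the call without Combination 3, 116 without ORIN1001 2, 110 without ORIN1001 3 and 103 with all 12 inputs; none changed direction. Of the 16 named genes that were not called, 5 changed sign. Leaving out each library gave log2 fold changes from -0.013 to 0.499 for Cdkn1a, -0.573 to 0.546 for Col1a1, -0.0217 to 0.1075 for Ern1, -0.0213 to 0.4075 for Krt14 and -0.193 to 0.132 for Tubb5. Ern1 stood at -0.0149 with no filter, and Tubb5 at 0.0695 with limma-voom and 0.035 with upper quartile scaling. Col1a1 stood at 0.0799 with upper quartile scaling and 0.015 with the replicate block. Upper quartile scaling moved the median of all genes from -0.01 to 0.09 and turned the medians of the BCL2, nerve, heat shock, luminal, long non-coding RNA, p53 target and stress sensor lists above 0. Replicate numbers are shared by the groups in the labels, but same-numbered libraries did not deviate together (correlations of -0.13, -0.21 and 0.06), so the numbers were not taken as pairs. Depth limits genes near 1 CPM, which is about 14.1, 11.85 and 15.7 reads in combination libraries 1 to 3.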

Other observations

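Called genes were unevenly spread over chromosomes. Of 13118 protein-coding genes with a location, 12.7% rose and 18.2% fell, with a median log2 fold change of -0.07. On chromosome 19, 29 of 465 genes rose and 158 fell, and the median was -0.41. Combination libraries 1 to 3 stood at -0.23, -0.62 and -0.33 there relative to the ORIN1001 mean, and the ORIN1001 libraries at 0.11, -0.03 and -0.08. Chromosomes 1, 5, 13 and 15 leaned the other way. On chromosome 13, 103 of 469 genes rose and 44 fell (median 0.16), and on chromosome 5, 176 of 831 rose and 73 fell (median 0.12). Chromosome 15 gave 118 rises and 61 falls of 525 (median 0.15). On chromosome 1, 169 of 781 rose and 54 fell (median 0.18), but ORIN1001 1 was also high there, at 0.19 above its group's mean. The pattern held among genes with a span above the median, where chromosome 19 had a median of -0.37 and chromosomes 5 and 13 medians of 0.23 and 0.22. DNA copy number of these tumours was not measured in the files used here.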
